A study of Mus musculus with 9 samples.

Results

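Complex I, the NADH:ubiquinone oxidoreductase of mitochondria, was followed through its nuclear genes by bulk RNA sequencing in wild-type mouse retinal pigment epithelium (RPE), the cell layer behind the photoreceptors. The members were all genes of the deposited table whose symbol starts with Nduf, without pseudogene names (-ps), and with a summed count of at least 100 over the 9 libraries. The rule gave 50 of 40202 genes, and all 50 were among the 25273 genes tested. They code for 37 subunits of complex I and 8 assembly factors. The others are Ndufa4 and Ndufa4l2, which are no longer counted as complex I subunits, and 3 copies of subunit genes (Ndufs6b, Ndufb4b and Ndufb4c).

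The 9 libraries fall into 3 groups of 3. The vutiglabridin group came from mice aged 24 months that had received this synthetic small molecule, a derivative of glabridin, for 6 months. The old control group came from mice aged 24 months and the young control group from mice aged 9 months, both labelled as control. All groups were wild type, and their strain and sex are not given in the sources used here. The title of the series names mitochondrial dysfunction of the RPE as a target of the compound, and the nuclear complex I genes are one readout of that question. The labels do not say whether the 3 libraries of a group came from separate animals, so each p-value measures only how far these samples spread, which may be technical. No group of 9-month mice given vutiglabridin is in the labels, so a comparison of the vutiglabridin group with young controls differs in both age and treatment.

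Complex I takes electrons from NADH, passes them along a chain of iron-sulfur clusters to ubiquinone, and pumps protons across the inner mitochondrial membrane. Its peripheral arm is made of an N module, where NADH is oxidised, and a Q module, where ubiquinone is reduced. The membrane arm that pumps protons has a proximal and a distal part. The catalytic core is shared with bacteria and is encoded partly in the nucleus and partly in mitochondrial DNA, and the accessory subunits are all nuclear. The RPE is known to draw much of its energy from oxidative metabolism, which spares glucose for the photoreceptors.

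Total counts per library were between 44196290 and 56797891. Levels are given as CPM, counts scaled to library sizes corrected by trimmed mean of M values (TMM). A gene counts as called where edgeR's quasi-likelihood test gave it an adjusted p (Benjamini-Hochberg) under 0.05. Of the 8 RPE markers checked, 8 averaged at least 1 CPM, and their summed level was 14360, 9244 and 9621 CPM in vutiglabridin libraries 1 to 3, between 11990 and 14280 CPM in old controls and between 15800 and 17950 CPM in young controls. A pair of libraries stood apart. In vutiglabridin 2 the 4 haemoglobin genes summed to 4986 CPM, against 39.9 to 582 CPM in the other 8 libraries, and Krt5, a keratin of stratified epithelium, had 62.8 CPM. In young control 1 the mitochondrial ribosomal RNA gene mt-Rnr2 took 0.153% of the counts, against 0.427% to 0.545% elsewhere. Results below are therefore also given for the 7 libraries without these.

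As a group the Nduf genes were lower in the vutiglabridin libraries than in both control groups. The summed level of the 50 genes was 1028, 943 and 891 CPM in the vutiglabridin libraries, 1068, 1139 and 1043 CPM in old controls and 1306, 1101 and 1041 CPM in young controls. All 3 vutiglabridin sums lay below all 6 control sums. In bulk samples, fewer cells of a type and less RNA per cell cannot be told apart. The median of the 50 log2 fold changes was -0.24 for vutiglabridin minus old control and -0.32 for vutiglabridin minus young control, where the median of all genes tested was -0.01 in each. It was -0.07 for old control minus young control (all genes, -0.01), and 0.02 when young control 1 was left out.

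**Figure D1:**
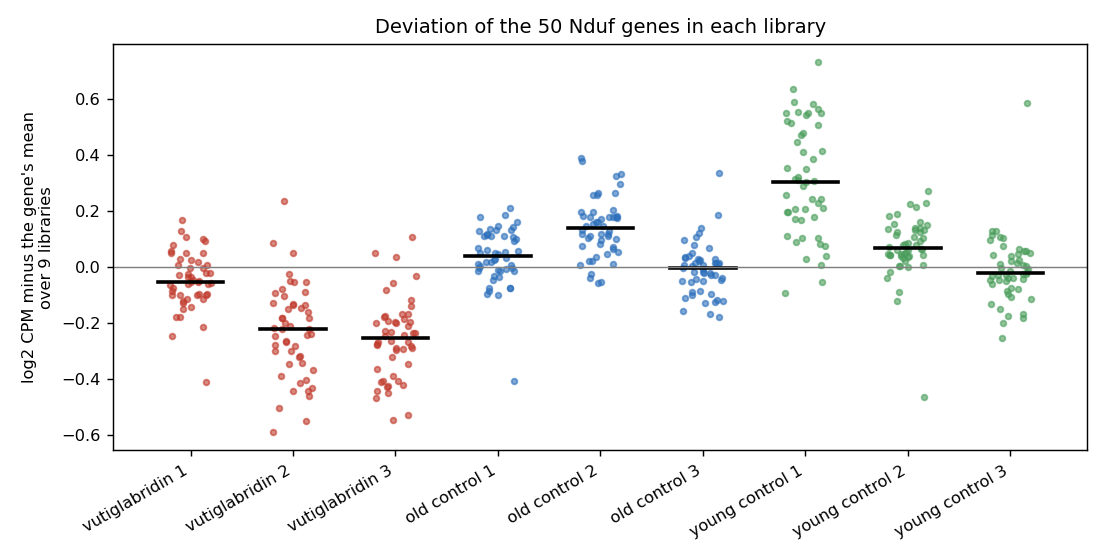
Each point is 1 of the 50 Nduf genes, drawn as its log2 CPM in a library minus its mean over the 9 libraries (y axis), by library (x axis); black bars are the medians of the library. The medians of vutiglabridin 2 and 3 lie at -0.22 and -0.25 and that of young control 1 at 0.30, with the other 6 libraries in between.

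The libraries within a group were not alike. As deviations from each gene's mean over the 9 libraries (log2), the member median was -0.05, -0.22 and -0.25 in vutiglabridin 1, 2 and 3. It was 0.04, 0.14 and -0.01 in old controls 1, 2 and 3 and 0.30, 0.07 and -0.02 in young controls 1, 2 and 3. Vutiglabridin 1 was thus closer to old control 3 and young control 3 than to the other vutiglabridin libraries. Young control 1 held the highest level of the 9 libraries for 37 of the 50 genes, while vutiglabridin 3 held the lowest for 26 and vutiglabridin 2 for 21. The member genes moved together between libraries. The correlation of a gene's log2 level with the median of the other members over the 9 libraries, which all share depth and scaling, had a median of 0.896, and 36 of 50 genes were above 0.8. Ndufa4l2 (-0.09), Ndufs4 (-0.38) and Ndufaf2 (-0.64) were the 3 genes under 0.3.

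Set against old controls, 1 of the 50 Nduf genes fell with vutiglabridin, the assembly factor Ndufaf5, and none rose. Over all genes tested, 1.97% were called lower in this comparison and 2.37% higher. The members' share of 2% was thus close to that of all genes. Of the 50 fold changes 47 were below 0, and 14 had an unadjusted p under 0.05, all 14 lower. Of the 25273 genes tested, 13020 were below 0, and 6246 had an unadjusted p under 0.05, 3088 of them lower. In 23 members (46%) all vutiglabridin libraries lay below all old controls, against 17.5% of all genes. The single call rests on the libraries used. It was lost (0 calls) when vutiglabridin 1, vutiglabridin 2, any of the 3 old controls, young control 2 or young control 3 was left out. All genes called lower then numbered between 15 and 298, against 499 with all 9 libraries. Without vutiglabridin 3 (all genes, 1833) or without young control 1 (552), 2 members were called.

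Set against young controls, which differ in both age and treatment, 8 members (16%) were called lower in the vutiglabridin libraries and none higher. Over all genes tested, 7.69% were called lower and 9.01% higher. The 8 were Ndufv3 and Ndufa6 of the N module, Ndufc2 of the proximal membrane arm, Ndufb5, Ndufb8 and Ndufb10 of the distal membrane arm, and the assembly factors Ndufaf5 and Ndufaf7. Of the 50 fold changes 48 were below 0, and 29 had an unadjusted p under 0.05, all 29 lower. Of the 25273 genes tested, 12795 were below 0, and 8644 had an unadjusted p under 0.05, 4229 of them lower. All vutiglabridin libraries lay below all young controls in 23 members (46%), against 17.3% of all genes. The count of 8, beside 1944 of all genes called lower, changed with the libraries used. It fell to 2 without vutiglabridin 2 (all genes, 1044), old control 1 (967), old control 2 (1058), young control 1 (799) or young control 2 (715). It was 3 without old control 3 (1150), 4 without vutiglabridin 3 (2700) and 9 without vutiglabridin 1 (1577) or young control 3 (1368). In the fits with 2 calls, the members' share lay much nearer to that of all genes than with all 9 libraries (16% and 7.69%). In the fits with 9 calls the members' share stayed above that of all genes. In the 7 libraries the count was 2 (all genes, 758), Ndufv3 and Ndufaf5, with a member median of -0.19. Fitted on the vutiglabridin and young control libraries alone, 0 members were called among 374 genes called lower, with edgeR adjusted p = 0.0501 for Ndufv3 and 0.0759 for Ndufaf5. Both comparisons with controls use the same vutiglabridin libraries, so their fold changes are not independent of each other.

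No member passed the threshold between old controls and young controls, against 1.68% of all genes called in either direction. DESeq2 and limma-voom also called 0 members, and 0 had an unadjusted p under 0.05 in edgeR's quasi-likelihood test, whose adjusted p was between 0.481 and 0.999. The fold changes lay between -0.26 (Ndufc2) and 0.12 (Ndufaf1), and 41 of 50 were below 0. Of the 25273 genes tested, 13245 were below 0 and 2945 had an unadjusted p under 0.05. Ndufs4 was the single member in which all old controls lay below all young controls (12.1% of all genes did so).

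**Figure D2:**
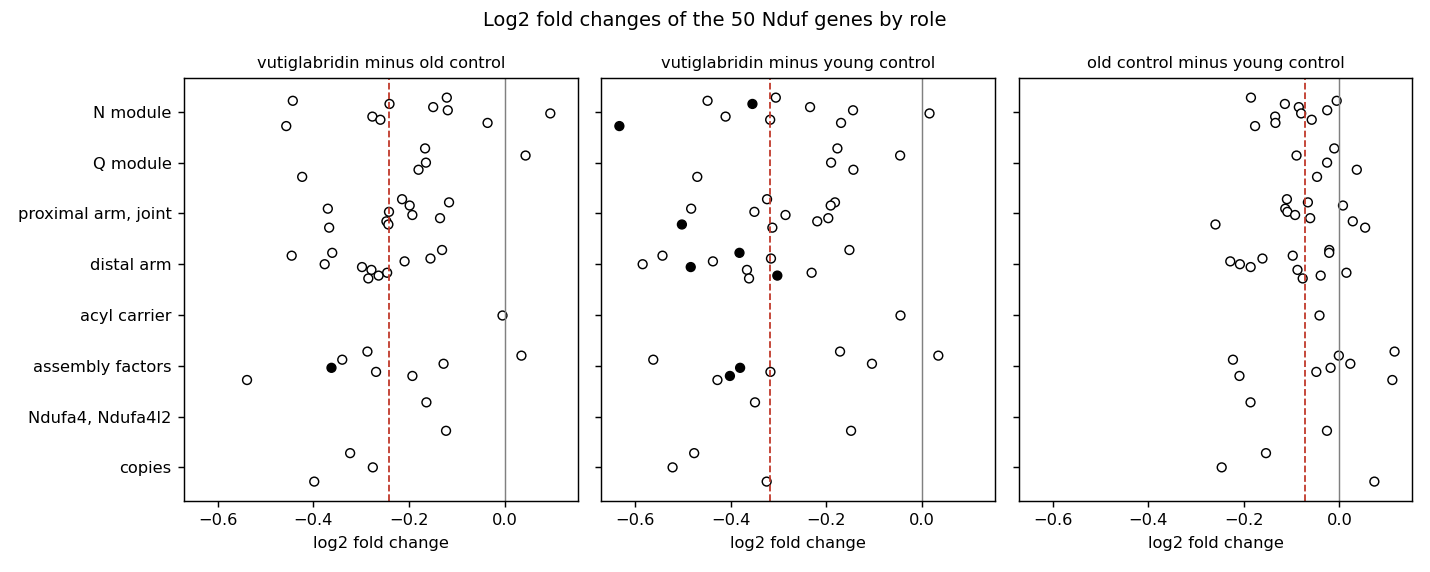
Fitted log2 fold change (x axis) of each of the 50 Nduf genes by role (y axis) in the 3 comparisons; filled points passed an adjusted p under 0.05, open points did not, the grey line marks 0 and the dashed red line the median of the 50 genes. The points lie mostly left of 0 in both vutiglabridin panels, with medians of -0.24 and -0.32, and near 0 in the panel of the controls, with a median of -0.07.

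The N module, the part of the complex where NADH is oxidised, had 10 nuclear subunits among the members. Of these, 2 fell against young controls, with a module median of -0.31, and 0 against old controls, with a median of -0.19. Beside the counts by role here and below, 7.69% of all genes were called lower against young controls and 1.97% against old controls. Differences in these counts between roles were not tested. Ndufv3, an accessory subunit bound to the flavoprotein subunits Ndufv1 and Ndufv2, had the lowest fold change of all members against young controls. It lies on chromosome 17 (31739089 to 31750300, plus strand, in the deposited coordinates) and overlaps no other gene. Its level was 28.1, 22.5 and 24.0 CPM in vutiglabridin libraries 1 to 3, against 34.4, 35.2 and 32.7 CPM in old controls and 45.5, 35.4 and 34.8 CPM in young controls. All vutiglabridin libraries lay below all 6 controls, and old controls overlapped young controls. The log2 fold change was -0.63 ± 0.12 (SE) against young controls (edgeR adjusted p = 0.0108) and -0.46 ± 0.12 against old controls, which did not pass (adjusted p = 0.0638). The call against young controls held when each of the 9 libraries was left out (adjusted p between 0.0106 and 0.0315), and the 7 libraries gave -0.43 (adjusted p = 0.0391).

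Ndufa6, a small subunit of the LYR family that holds the mitochondrial acyl carrier protein in the complex, was the other N-module call. Its level was 21.5, 19.5 and 20.5 CPM in vutiglabridin libraries, 23.8, 26.1 and 22.8 CPM in old controls and 29.1, 24.3 and 25.3 CPM in young controls. Here too the vutiglabridin libraries lay below all controls. The log2 fold change was -0.35 ± 0.10 against young controls (edgeR adjusted p = 0.0393) and -0.24 ± 0.10 against old controls (adjusted p = 0.176). The call against young controls was lost when any of the 9 libraries was left out (adjusted p between 0.0537 and 0.106). Ndufab1, the acyl carrier protein itself, had log2 fold changes of -0.05 against young controls and 0.00 against old controls.

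Ndufs4, an accessory N-module subunit whose loss in mice gives a model of Leigh syndrome, did not follow them. It had 103.4, 105.1 and 104.2 CPM in vutiglabridin libraries, 94.7, 97.7 and 100.2 CPM in old controls and 103.6, 101.4 and 104.2 CPM in young controls. The vutiglabridin libraries lay above all old controls, which held for 14.7% of all genes, and overlapped the young controls. The log2 fold change was 0.10 ± 0.07 against old controls (edgeR adjusted p = 0.398) and 0.02 ± 0.07 against young controls (adjusted p = 0.886). Ndufs4 spans 100300 bases. Other genes over 50 kb, with a mean of at least 5 CPM, had a median of 0.06 against each control group.

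The Q module, 5 subunits around the site of ubiquinone reduction, had no called member in any comparison, with a median of -0.18 against young controls and -0.17 against old controls. Ndufs8, which carries iron-sulfur clusters, had the lowest fold changes of the module, -0.47 against young controls (adjusted p = 0.0795) and -0.42 against old controls (adjusted p = 0.158).

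The 7 nuclear core subunits, which carry the flavin, the iron-sulfur clusters and part of the ubiquinone site, included no called member. Their median was -0.17 against young controls and -0.16 against old controls, beside -0.31 and -0.24 for all 37 subunits. Against young controls the values were -0.32 for Ndufv1 (the flavin and NADH site), -0.17 for Ndufv2, -0.14 for Ndufs1, -0.19 for Ndufs3, -0.14 for Ndufs7 and -0.47 for Ndufs8. Against old controls they were -0.26 for Ndufv1, -0.04 for Ndufv2, -0.12 for Ndufs1, -0.16 for Ndufs3, -0.18 for Ndufs7 and -0.42 for Ndufs8. Whether core and accessory subunits differed was not tested. Ndufs1 shares 14704 bases with the antisense gene Ino80dos, and Ndufv2 shares 453 bases with Ankrd12, so their values may hold reads of both genes.

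The membrane arm, with 10 proximal and 11 distal subunits among the 50 members, gave 4 of the 8 calls. The 10 subunits of the proximal arm and its joint had a median of -0.30 against young controls with 1 call, and -0.23 against old controls with 0 calls. The call was Ndufc2, an accessory subunit of the proximal arm, with 30.3, 25.8 and 23.6 CPM in vutiglabridin libraries, 31.1, 34.7 and 28.7 CPM in old controls and 45.9, 36.6 and 30.5 CPM in young controls. Vutiglabridin 1 lay inside the range of the old controls and just below the lowest young control. The log2 fold change was -0.50 ± 0.15 against young controls (edgeR adjusted p = 0.0483) and -0.24 ± 0.15 against old controls (adjusted p = 0.346), and the call against young controls was kept in 2 of 9 fits that left out a library.

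The distal arm, 11 accessory subunits of the Ndufb series, had 3 calls against young controls with a median of -0.37, and 0 calls against old controls with a median of -0.28. All 11 fold changes were below 0 in each. Over all genes tested, 7.69% were called lower against young controls and 1.97% against old controls. Ndufb8, a subunit often measured as a marker of assembled complex I, had 20.7, 19.0 and 18.7 CPM in vutiglabridin libraries, 23.9, 23.9 and 22.2 CPM in old controls and 25.5, 24.1 and 22.3 CPM in young controls. Ndufb10, which lies on the side of the intermembrane space, had 22.9, 21.7 and 18.5 CPM in vutiglabridin libraries, 27.3, 28.5 and 25.1 CPM in old controls and 31.0, 24.9 and 26.2 CPM in young controls. In both genes the vutiglabridin libraries lay below all controls, while old and young controls overlapped.

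The fold changes of Ndufb8 were -0.30 ± 0.09 against young controls (edgeR adjusted p = 0.0480) and -0.26 ± 0.09 against old controls (adjusted p = 0.116). Those of Ndufb10 were -0.38 ± 0.12 (adjusted p = 0.0483) and -0.36 ± 0.12 (adjusted p = 0.0960). Ndufb5 had 23.2, 20.7 and 18.1 CPM in vutiglabridin libraries, 24.5, 26.9 and 24.7 CPM in old controls and 35.2, 27.8 and 23.5 CPM in young controls, with young control 1 far above the rest. Its fold change was -0.48 ± 0.15 against young controls (adjusted p = 0.0486) and -0.30 ± 0.15 against old controls (adjusted p = 0.238). Of the fits that each left out 1 of 9 libraries, 0 kept the Ndufb8 call against young controls, 1 kept that of Ndufb10 and 2 kept that of Ndufb5. Ndufb4 had 10.2, 7.55 and 9.19 CPM in vutiglabridin libraries, 12.1, 11.6 and 11.3 CPM in old controls and 18.4, 12.4 and 9.76 CPM in young controls. Its vutiglabridin libraries lay below all old controls and overlapped young control 3, and its fold change of -0.58 against young controls, the lowest of the distal arm, did not pass (adjusted p = 0.0770).

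**Figure D3:**
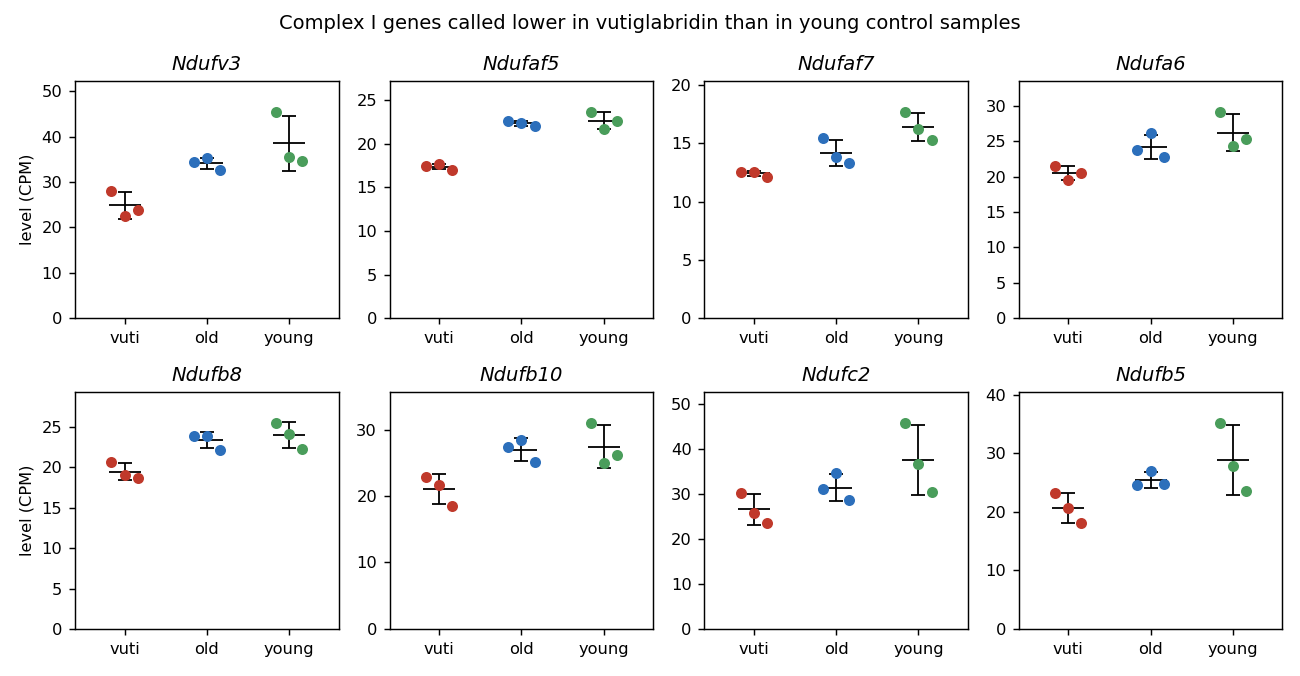
Level in CPM (y axis, from 0) of the 8 Nduf genes called lower in vutiglabridin than in young control libraries, by group (x axis: vuti, vutiglabridin; old, old control; young, young control); points are libraries, long bars the means and whiskers ± 1 SD of 3. The vutiglabridin points lie below all 3 young controls in each panel, and young control 1 is the highest young point in all 8.

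Among the 8 assembly factors of the Nduf series, 2 fell against young controls and 1 against old controls, with medians of -0.35 and -0.28. Ndufaf5, known in human cells to hydroxylate an arginine of the core subunit NDUFS7, is on chromosome 2 (140012504 to 140047172, plus strand) and overlaps no other gene. It had 17.4, 17.7 and 17.04 CPM in vutiglabridin libraries, against 22.6, 22.4 and 22.1 CPM in old controls and 23.6, 21.7 and 22.6 CPM in young controls. The spread within each group was small, and the vutiglabridin libraries lay well below all 6 controls, which overlapped each other. The log2 fold change was -0.36 ± 0.08 against old controls (edgeR adjusted p = 0.0399) and -0.38 ± 0.08 against young controls (adjusted p = 0.0150).

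The Ndufaf5 call against young controls held when each library was left out (adjusted p between 0.0186 and 0.0449), and the one against old controls held in 2 of 9 such fits. In the 7 libraries both held, with -0.36 against young controls (adjusted p = 0.0435) and -0.38 against old controls (adjusted p = 0.0436). Ndufaf8, the partner of NDUFAF5 in human cells, had 3.49, 3.41 and 4.27 CPM in vutiglabridin libraries, 5.13, 5.83 and 5.29 CPM in old controls and 5.50, 4.99 and 4.57 CPM in young controls. Its vutiglabridin libraries lay below all controls. Its fold change of -0.54 ± 0.15 against old controls was the lowest of all members there and did not pass (edgeR adjusted p = 0.0669), nor did that of -0.43 ± 0.15 against young controls (adjusted p = 0.0746).

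Ndufaf7, a protein methyltransferase needed for complex I assembly, had 12.6, 12.5 and 12.1 CPM in vutiglabridin libraries, 15.4, 13.9 and 13.3 CPM in old controls and 17.7, 16.2 and 15.3 CPM in young controls. Old controls lay between the other groups, with old control 1 inside the young range. The log2 fold change was -0.40 ± 0.10 against young controls (edgeR adjusted p = 0.0263) and -0.19 ± 0.10 against old controls (adjusted p = 0.265), and the call against young controls was kept in 4 of 9 fits that left out a library. Ndufaf2, which binds a late assembly intermediate, did not follow them, with 29.6, 32.9 and 32.1 CPM in vutiglabridin libraries, 31.2, 31.1 and 29.9 CPM in old controls and 29.0, 30.1 and 33.1 CPM in young controls. Its groups overlapped, with log2 fold changes of 0.03 ± 0.09 against young controls and 0.04 ± 0.09 against old controls. Like Ndufs4 it has a long span, of 106067 bases. Ndufaf1, of the complex that assembles part of the membrane arm, had 7.70, 8.19 and 6.66 CPM in vutiglabridin libraries, 8.48, 9.96 and 9.06 CPM in old controls and 8.95, 8.60 and 7.85 CPM in young controls. Its vutiglabridin libraries lay below all old controls, with -0.29 (adjusted p = 0.191), and overlapped young controls, with -0.17.

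The promoters of a pair of genes whose call against young controls held without each library, and of Ndufa6, are printed as the 250 bases before the RefSeq start in GRCm38.p6, 5′ to 3′ on the gene's strand. The Ndufv3 window is chr17:31519865-31520114 (plus strand), the Ndufaf5 window chr2:140170396-140170645 (plus strand) and the Ndufa6 window chr15:82354292-82354541 (minus strand). Capitals mark the letters GCATGCGCA in the Ndufa6 window, where a GCATGCG and a TGCGCA overlap, 83 and 80 bases before the start. The other windows held none of the motifs searched.
Ndufv3: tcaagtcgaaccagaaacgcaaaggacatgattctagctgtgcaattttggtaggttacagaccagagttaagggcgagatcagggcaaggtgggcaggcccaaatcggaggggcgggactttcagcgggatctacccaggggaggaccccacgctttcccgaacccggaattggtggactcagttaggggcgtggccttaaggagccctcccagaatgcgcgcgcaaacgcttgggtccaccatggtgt
Ndufaf5: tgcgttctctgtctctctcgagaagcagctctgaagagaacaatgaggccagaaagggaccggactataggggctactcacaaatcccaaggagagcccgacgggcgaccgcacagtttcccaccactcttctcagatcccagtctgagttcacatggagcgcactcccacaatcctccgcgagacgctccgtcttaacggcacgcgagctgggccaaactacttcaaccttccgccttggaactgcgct
Ndufa6: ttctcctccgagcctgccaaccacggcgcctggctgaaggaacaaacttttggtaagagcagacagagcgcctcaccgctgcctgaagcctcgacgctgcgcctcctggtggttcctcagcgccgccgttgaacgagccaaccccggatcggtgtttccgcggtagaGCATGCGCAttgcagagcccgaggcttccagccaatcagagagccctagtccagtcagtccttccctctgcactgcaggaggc

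Motifs of 3 factors known to act on nuclear genes of respiration were searched on both strands, NRF1 (TGCGCA, its own reverse complement), ETS factors (CCGGAAG) and YY1 (AAGATGG). A RefSeq window was matched for 42 of the 50 members, and 27025 genes had one in all. TGCGCA was in 8 of the 42 members' windows (19.0%), against 7.4% of all windows. CCGGAAG was in 5 (11.9%), against 7.8%, and AAGATGG in 0, against 5.2%. Only the 250 bases before the start were searched, so a motif at or after the start would be missed. GCATGCG, a longer stretch of the NRF1 motif added after the first search and overlapping TGCGCA where both occur in Ndufa6, was in 4 (9.5%), against 3.4%. Of the 8 members called against young controls, 1 (Ndufa6) held TGCGCA.

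Among the members that are not complex I subunits, Ndufa4, now assigned to complex IV, had 25.7, 22.0 and 20.9 CPM in vutiglabridin libraries, 25.3, 28.9 and 22.6 CPM in old controls and 34.1, 28.02 and 25.3 CPM in young controls. Vutiglabridin 1 lay above young control 3 and the groups overlapped, with a log2 fold change of -0.35 ± 0.14 against young controls (edgeR adjusted p = 0.105) and -0.16 ± 0.14 against old controls (adjusted p = 0.490). Ndufa4l2, a paralog known to be induced by hypoxia, was scarce, at 1.23, 1.16 and 1.42 CPM in vutiglabridin libraries, 0.988, 1.501 and 1.68 CPM in old controls and 1.27, 0.946 and 2.00 CPM in young controls. Its groups overlapped fully. The 3 copies lie inside other genes (Ndufs6b in Slc28a1, Ndufb4b in Dock8 and Ndufb4c in Mroh5), so their counts may hold reads of those genes. They may also hold reads of their parent genes, but the sequences were not compared here. Ndufb4c had 12.05, 9.16 and 9.05 CPM in vutiglabridin libraries, 12.1, 12.9 and 11.6 CPM in old controls and 18.7, 12.997 and 11.8 CPM in young controls, with -0.52 against young controls (adjusted p = 0.0706). Its groups overlapped. No copy was called. Their median was -0.48 against young controls and -0.32 against old controls.

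On the deposited FPKM scale, which here divides by the whole gene span with introns, mean levels over the 9 libraries were highest for the copies, 27.0 for Ndufb4b, 25.3 for Ndufb4c and 23.3 for Ndufs6b. Next came Ndufb10 at 10.6, Ndufb11 at 9.21 and Ndufv1 at 8.35 FPKM. The lowest were Ndufa4l2 at 0.172 and Ndufaf2 at 0.292 FPKM, the last with a span of 106067 bases. Because introns enter the length, this order follows the span of the genes as well as their RNA.

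The fold changes of the members went with the span of the gene. Spearman's rho between span and log2 fold change over the 50 members, which share all libraries, was 0.489 against young controls and 0.602 against old controls. It was 0.117 and 0.155 over all genes tested, and -0.0442 over the members for old control minus young control. Against young controls, the median of the 5 members under 2 kb was -0.48 (other genes of that span, -0.22), that of the 19 members of 5 to 10 kb was -0.32 (other genes, -0.11), and that of the 7 members of 20 to 50 kb was -0.20 (other genes, -0.02). The 2 members over 50 kb, Ndufs4 and Ndufaf2, had a median of 0.03 (other genes, 0.06). These other genes averaged at least 5 CPM. Members were thus below the median of other genes of like span in each of these bins, and short genes that are not members also had medians below 0.

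**Figure D4:**
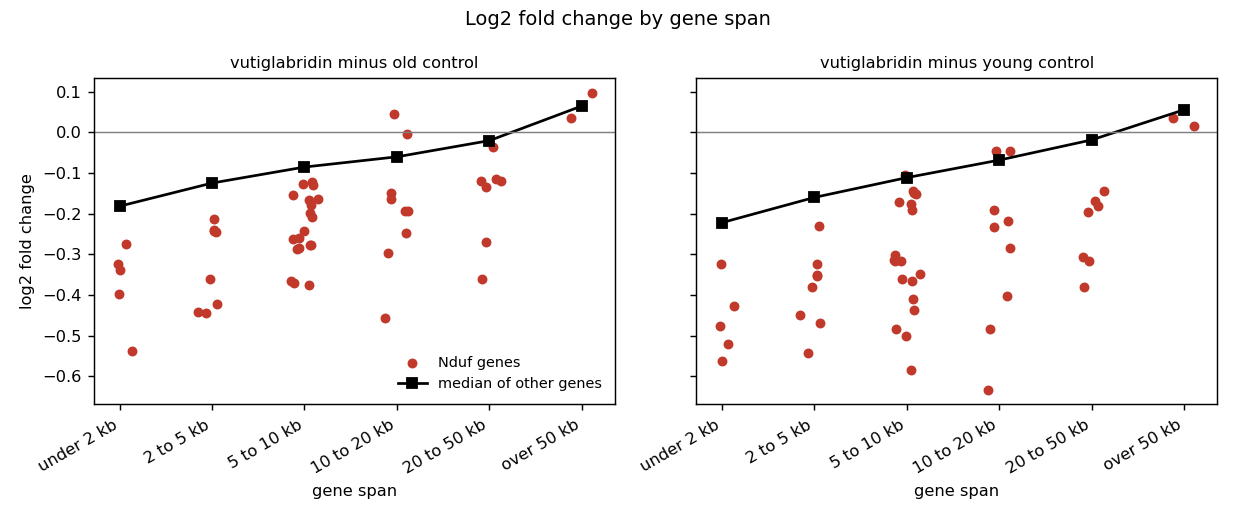
Log2 fold change (y axis) of the 50 Nduf genes (red points) by bins of gene span (x axis), with the median of the other genes of at least 5 CPM in each bin (black squares and line). Against young controls (right panel) the medians of the other genes run between -0.22 under 2 kb and 0.06 over 50 kb, and those of the Nduf genes between -0.48 and 0.03.

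The same tilt set libraries apart within groups. The 1185 other genes of at most 5 kb deviated by a median of -0.04, -0.07 and -0.18 (log2) in vutiglabridin 1, 2 and 3, by 0.03, 0.09 and -0.01 in old controls 1, 2 and 3 and by 0.22, 0.02 and -0.03 in young controls 1, 2 and 3. Vutiglabridin 3 and young control 1 were the extremes. A per-library trend on span was then taken out, an alternative chosen after the data were seen. Of the 50 members, 3 stayed called lower against young controls, a share close to the 6.19% of all genes called lower. The 3 were Ndufv3 (-0.55, edgeR adjusted p = 0.0105), Ndufaf5 (-0.36, adjusted p = 0.0154) and Ndufaf7 (-0.32, adjusted p = 0.0451). The member median became -0.19, where that of all genes was 0.05. Against old controls Ndufaf5 stayed called (-0.34, adjusted p = 0.0412), beside 409 of all genes called lower. The member median there was -0.12, where that of all genes was 0.03. The trend was not fully gone from the members. Their rho between span and fold change was still 0.331 against old controls (all genes, -0.0146) and 0.115 against young controls (all genes, -0.0468).

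Markers of other cell types also moved between libraries, and their part in these results was not tested. The summed RPE markers, given above, were lowest in vutiglabridin 2 and 3, as the members were. The 10 rod photoreceptor markers, all of at least 1 CPM, summed to 257, 590 and 778 CPM in vutiglabridin libraries, 281, 291 and 380 CPM in old controls and 383, 191 and 338 CPM in young controls. The 12 skeletal muscle markers, from a tissue rich in mitochondria, summed to 426, 578 and 137 CPM in vutiglabridin libraries, 156 to 400 CPM in old controls and 59.8 to 193 CPM in young controls. The 6 stratified epithelium markers, of which 5 averaged at least 1 CPM, summed to 7.37, 232 and 44.6 CPM in vutiglabridin libraries and to at most 19.4 CPM in the controls. The 9 macrophage and microglia markers summed to between 586 and 881 CPM in vutiglabridin libraries, 686 and 755 CPM in old controls and 425 and 540 CPM in young controls. The markers of melanocytes (4), Muller glia (5) and endothelium (8) were highest in young controls. Melanocyte markers summed to 1538 to 1943 CPM in vutiglabridin libraries, 2120 to 2183 CPM in old controls and 2632 to 2891 CPM in young controls. Muller glia markers summed to 1217 to 1824 CPM in vutiglabridin libraries, 1577 to 1871 CPM in old controls and 2003 to 2290 CPM in young controls. Endothelial markers summed to 521 to 596 CPM in vutiglabridin libraries, 564 to 590 CPM in old controls and 680 to 732 CPM in young controls. The RPE itself is known to express several melanocyte genes, and Rlbp1 stands in both the RPE and the Muller glia list. No marker of these lists was at 0 in all 9 libraries.

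The complex I genes outside the naming rule did not all go the same way. The 7 subunits encoded in mitochondrial DNA were all higher on average with vutiglabridin, with a median log2 fold change of 0.29 against old controls and 0.62 against young controls. Against old controls 1 of the 7 rose (ND6), where 2.37% of all genes were called higher. Against young controls 4 rose (ND1, ND4, ND5 and ND6), where 9.01% of all genes were called higher, and 0 fell in either comparison. ND6, the subunit encoded on the light strand, had 31.0, 31.3 and 33.6 CPM in vutiglabridin libraries, 22.3, 17.7 and 20.3 CPM in old controls and 18.7, 21.1 and 22.4 CPM in young controls. All its vutiglabridin libraries lay above all controls, with 0.67 ± 0.11 against old controls (edgeR adjusted p = 0.0188) and 0.62 ± 0.11 against young controls (adjusted p = 0.00722). ND5, a proton-pumping subunit, had 163.7, 131.2 and 166.5 CPM in vutiglabridin libraries, 129.9, 116.6 and 121.4 CPM in old controls and 80.7, 112.2 and 108.4 CPM in young controls. Young control 1 was the lowest library, and the fold change against young controls was 0.61 ± 0.14 (adjusted p = 0.0163).

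The ND5 and ND6 calls against young controls held without each library in turn, that of ND1 in 3 of 9 such fits and that of ND4 in 2, and all 4 held in the 7 libraries (adjusted p between 0.00713 and 0.034). Fitted on the vutiglabridin and young control libraries alone, ND6 kept its call (edgeR adjusted p = 0.0328), while ND5 (0.0619), ND1 (0.0957) and ND4 (0.098) lost theirs. The ND6 call against old controls was lost when any 1 of the 3 old controls was left out. In the 7 libraries ND6 (edgeR adjusted p = 0.0179), ND4 (0.0251) and ND5 (0.024) were called higher against old controls, and ND1 (0.124) was not. ND5 and ND6 overlap at their ends on opposite strands. In library medians the nuclear and mitochondrial subunits parted most in young control 1, at 0.31 for the 37 nuclear and -0.61 for the 7 mitochondrial genes, which is the library with the low mt-Rnr2 share. They parted the other way in all 3 vutiglabridin libraries (-0.04 and 0.35 in library 1, -0.22 and 0.20 in library 2, -0.25 and 0.50 in library 3). In old controls the mitochondrial medians were between -0.03 and -0.02.

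**Figure D5:**
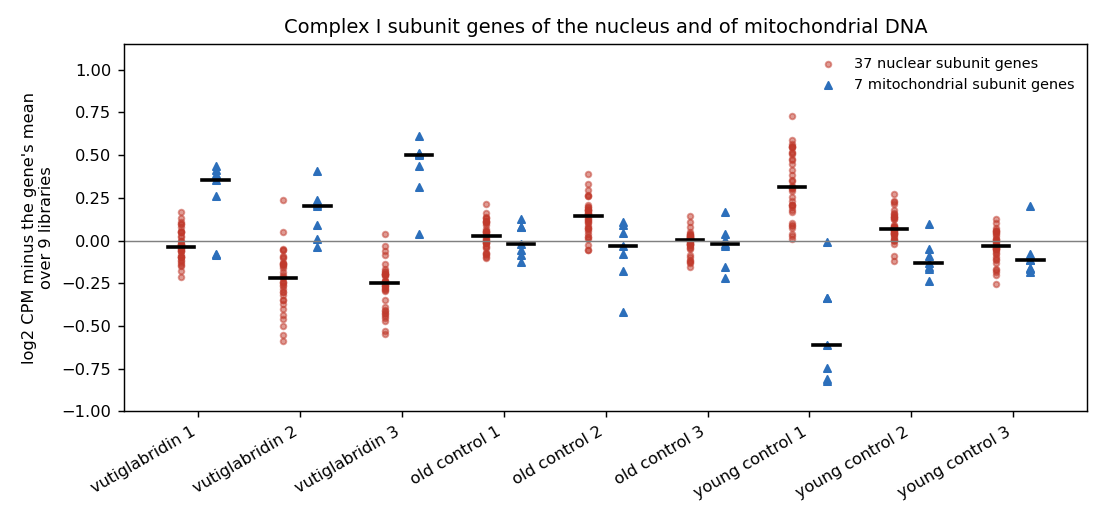
Log2 CPM minus the gene's mean over the 9 libraries (y axis) for the 37 nuclear subunit genes of complex I (red circles) and the 7 subunit genes of mitochondrial DNA (blue triangles) in each library (x axis); black bars are medians. The mitochondrial median lies above the nuclear one in the 3 vutiglabridin libraries and below it in all 6 controls, by the most in young control 1 (-0.61 and 0.31).

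Of the assembly factors with other names, 13 were tested. Against old controls 1 fell (Tmem126b), where 1.97% of all genes were called lower. Against young controls 3 fell (Lyrm2, Foxred1 and Tmem126b), where 7.69% of all genes were called lower. The medians were -0.20 and -0.25, and none rose. Lyrm2, an LYR-family protein of the N module's assembly, had 17.5, 12.8 and 14.6 CPM in vutiglabridin libraries, 19.98, 23.3 and 19.6 CPM in old controls and 27.1, 26.5 and 25.0 CPM in young controls. Its 3 groups did not overlap, and the log2 fold change was -0.81 ± 0.13 against young controls (edgeR adjusted p = 0.00463), held without each library. Against old controls Lyrm2 had -0.49 ± 0.12 (adjusted p = 0.0555), and old controls had -0.32 ± 0.12 against young controls (adjusted p = 0.323). Tmem126b, of the complex that assembles part of the membrane arm, had 7.12, 6.54 and 6.83 CPM in vutiglabridin libraries, 9.79, 10.2 and 8.88 CPM in old controls and 8.79, 9.63 and 8.20 CPM in young controls. Its fold change was -0.50 ± 0.12 against old controls (adjusted p = 0.0426) and -0.38 ± 0.12 against young controls (adjusted p = 0.0498), kept in 2 and in 0 of 9 fits that left out a library. Foxred1, an assembly factor with a flavin, had -0.42 ± 0.11 against young controls (adjusted p = 0.0306), kept in 2 of 9. Fitted on the vutiglabridin and young control libraries alone, the Lyrm2 call against young controls held (adjusted p = 0.0284), and those of Foxred1 (0.0979) and Tmem126b (0.134) did not.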

How the data were processed

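RPE RNA from 9 libraries was extracted with TRIzol and made into stranded total RNA libraries, per the labels' protocols. Per the submitters' processing notes the authors used Bowtie2 2.3.4.1, featureCounts 1.6.0 and DESeq2, with the build GRCm38. Raw counts and FPKM per gene and library were deposited by the authors. In all 40202 genes the FPKM is the count over gene span and library total (relative tolerance 1e-06). The table's chromosome accessions are those of GRCm39, so its coordinates are printed as deposited and RefSeq promoters by their own build. Where gene spans overlap, reads of both genes may be counted in each.

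Counts of the 25273 genes kept by filterByExpr were scaled by TMM and fitted over all 9 libraries with the robust quasi-likelihood method of edgeR 4.0.16 (R 4.3.3), without covariates; adjustment was over all genes tested. Alternatives used DESeq2 1.42.0, limma 3.58.1, other scalings, no filter and libraries left out. Each SE is the absolute fold change over the root of F. The labels give no batch. The members, lists and tests were chosen with earlier results of these data known. Genes described with values per library were those called in any comparison, the 2 highest and 2 lowest fold changes (mean of at least 1 CPM) and the 2 smallest p of each comparison, Ndufv3, Ndufa4 and Ndufa4l2; the values of Ndufab1, Ndufs8, Lyrm2, Foxred1, Tmem126b, ND5 and ND6 were chosen for print after they were seen. A gene that met the rule is not reported here.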

Additional observations from a re-analysis of the deposited data

How the results depend on the processing

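The number of Nduf genes called lower is given here beside the number of all genes called lower in the same fit. Against young controls it was 8 beside 1944, and it became 21 beside 3338 at an adjusted p under 0.10. It was 4 beside 1779 with DESeq2's size factors in edgeR, 13 beside 2214 with total counts as library size, and 5 beside 1646 without the filter on low counts. DESeq2 gave 15 beside 2548 and limma-voom with quality weights 2 beside 1646. More genes were tested without the filter and with DESeq2 than in the main fit. Equal counts of all genes called are thus not equal shares. The called share was higher in members than in all genes without the filter and with DESeq2, and lower in limma-voom (25273 genes tested). The vutiglabridin and young control libraries alone gave 0 beside 374, the 7 libraries 2 beside 758, and the removal of the span trend 3 beside 1565. With 1 library left out the members called were between 2 and 9 and all genes between 715 and 2700. All 8 overlap no other gene. Against old controls it was 1 beside 499, and it became 4 beside 1391 at an adjusted p under 0.10. It was 2 beside 753 with total counts, 0 beside 490 without the filter, 3 beside 1212 with DESeq2, 3 beside 1100 with limma-voom and 0 beside 67 with the vutiglabridin and old control libraries alone. With 1 library left out the members called were between 0 and 2 and all genes between 15 and 1833. The cause of these changes was not tested. The count for old minus young controls was 0 in every alternative run. The median of the members against young controls was -0.19 both in the 7 libraries and with the span trend removed, and between -0.38 and -0.23 with 1 library left out; against old controls that range was -0.31 to -0.19, and for old minus young controls -0.15 to 0.02. No member's called fold change changed sign.

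With the replicate number as a block, 12 members (of 1712 genes called lower) were called against young controls and 0 (of 152) against old controls. The labels do not say whether the numbers pair the samples. Deviations of same-numbered libraries correlated between -0.0804 and 0.247 (9 pairs), those of different numbers between -0.374 and 0.401 (18 pairs). These ranges overlap and cannot decide whether the samples are paired, so the block values are not read further. With 3 libraries a group, SEs of 0.07 to 0.31 on the log2 scale limit what can be called.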
